A study of Mus musculus with 6 samples.

Results

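The 32 genes described here make up the antioxidant programme governed by the transcription factor NRF2, together with the glutathione, thioredoxin, iron and pentose phosphate enzymes that work beside it. They were chosen by gene symbol, through GENCODE M21 gene IDs, and all 32 were among the 34745 genes measured. RNA was sequenced from alveolar macrophages, the macrophages of the air spaces, recovered by bronchoalveolar lavage. There were 3 Phlpp1-deficient libraries (KO libraries 1, 2 and 3) and 3 wild-type libraries (WT libraries 1, 2 and 3). Both groups were given the lung-injuring drug bleomycin (5 mg per kg) into the trachea and sampled at day 7. Phlpp1 codes for a phosphatase that removes activating phosphate groups from the kinase Akt. The labels describe neither the allele nor the age of the mice, and whether libraries of a group stem from different animals is not stated. Each p-value is thus set against variation among libraries, which differed in cell content and may not represent variation among animals. Saline-treated mice were not analysed here.

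NRF2, the product of Nfe2l2, is held in the cytoplasm and marked for destruction by KEAP1. When oxidants or electrophiles modify cysteines of KEAP1, NRF2 escapes, enters the nucleus and, paired with a small MAF protein, binds antioxidant response elements upstream of its target genes. The targets make and recycle glutathione and thioredoxin, supply NADPH, break down haem and store iron. Alveolar macrophages depend on this defence because they meet inhaled oxygen directly, make oxidants themselves and take up red cells after lung injury.

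The core letters of the antioxidant response element, TGACNNNGC on either strand, were searched in RefSeq promoter windows of 300 bases (GRCm38.p6), running from 250 bases before to 50 after each start site. Of the 32 genes, 26 had at least 1 window, and 10 of these 26 held the letters in any window (38.5%), against 14.0% of all genes in the table. By window, 10 of their 37 windows held the letters, against 12.4% of all windows. Hmox1, Gsr, Gclc, Prdx6, Gsta4 and Sod3 had no window. Stretches from 5 of the 10 are shown because they span the pathway from the factor itself (Nfe2l2) to glutathione supply (Gclm), the thioredoxin system (Txnrd1, Prdx1) and NADPH supply (G6pdx). Capitals mark the motif. In the last 4 it lies on the opposite strand and reads GCNNNGTCA. The stretches are chr2:75704855-75704913 (minus strand), chr3:122245383-122245471 (plus), chr10:82859074-82859162 (plus), chr4:116685426-116685514 (plus) and chrX:74428889-74428977 (minus), each written 5′ to 3′ along its gene and ending before the RefSeq start site of its window. The Txnrd1 and G6pdx stretches precede a start site that lies inside the gene as GENCODE M21 annotates it, and the other 3 lie outside their M21 genes.
Nfe2l2: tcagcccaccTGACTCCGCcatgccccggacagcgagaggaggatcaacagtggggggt
Gclm: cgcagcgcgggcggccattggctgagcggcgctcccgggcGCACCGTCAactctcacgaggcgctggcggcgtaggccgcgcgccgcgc
Txnrd1: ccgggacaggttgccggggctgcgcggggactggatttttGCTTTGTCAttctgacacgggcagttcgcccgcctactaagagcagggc
Prdx1: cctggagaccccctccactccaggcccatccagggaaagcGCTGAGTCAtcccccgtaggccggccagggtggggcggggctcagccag
G6pdx: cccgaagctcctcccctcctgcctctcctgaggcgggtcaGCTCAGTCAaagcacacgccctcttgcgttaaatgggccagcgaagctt
The other 5 genes with the letters were Me1, Mgst1, Pgd, Sod1 and Srxn1. In Pgd and Srxn1 the motif lies after the start site, and in Me1 it spans the start site. In Prdx1 and Me1 the motif overlaps TGANTCA, the letters bound by AP-1 factors, an overlap found in 0.454% of all windows. These matches describe letters and are not evidence of binding. The 5 printed genes did not share a pattern across libraries: WT library 2 was the highest of the 6 libraries for Nfe2l2 and Gclm, whereas WT library 1 was the highest for Prdx1 and G6pdx and KO library 2 for Txnrd1.

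Total counts lay between 13340861 and 15843764 per library. Phlpp1 was counted in every library, at 17.7 to 23.2 CPM (counts scaled to the TMM-adjusted library total) in KO and 25.3 to 30.3 CPM in WT. All KO libraries lay below all WT libraries, but the difference did not pass the test (edgeR quasi-likelihood, adjusted p = 0.62), and with the altered part of the gene unknown this checks the genotype labels only weakly. Of 20 alveolar macrophage markers, 20 were tested and none was at 0 in all libraries, and 17 had log2 differences above 0, with a median of 0.23. Their summed level was 14481 to 29640 CPM in KO and 16397 to 26226 CPM in WT, and Siglecf, a lectin that defines these cells in mice, had 170 to 223 CPM in KO and 96.4 to 177 CPM in WT. The libraries also held RNA of other cells, in amounts that differed within each genotype and, for some lists, between genotypes. Neutrophil markers (24 genes, 23 tested, none at 0 throughout) summed to 11346, 13322 and 2259 CPM in KO libraries 1, 2 and 3 and to 1903, 26365 and 4581 CPM in WT libraries 1, 2 and 3. Erythroid markers (19 of 20 in the table, 9 tested, none at 0 throughout) summed to 386, 5194 and 1081 CPM in KO and 482, 8401 and 513 CPM in WT. Monocyte markers (19 genes, all tested, none at 0 throughout) had 18 log2 differences below 0, with a median of -0.82, and summed to 3924, 4327 and 4859 CPM in KO and 5995, 5610 and 7423 CPM in WT, so that list separated the genotypes by library. B cell markers (10 genes, all tested) had 10 log2 differences above 0, with a median of 1.51, and summed to 1061, 278 and 382 CPM in KO and 304, 124 and 131 CPM in WT. Epithelial markers (18 genes, all tested) had 15 above 0, with a median of 0.34, and summed to 646, 1401 and 747 CPM in KO and 755, 520 and 547 CPM in WT. Immediate early genes, which handling or stimulation induces within minutes, summed to 12547, 14665 and 3137 CPM in KO and 3028, 4070 and 2258 CPM in WT, with 21 of 22 log2 differences above 0 and a median of 1.22. The part of these differences in the values that follow was not tested, except where a marker covariate is given. In such bulk samples, fewer cells of a type and less RNA per cell cannot be told apart.

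None of the 32 genes passed the test between the genotypes. All 32 were tested, by edgeR's quasi-likelihood test with Benjamini-Hochberg adjustment over 14037 genes, and 0 had an adjusted p under 0.05, where 0.0997% of all tested genes did. At an unadjusted p under 0.05 there were 2, Keap1 and Gsr, both lower in KO, where 6.96% of all tested genes reached it. The count was 3 of 32 with DESeq2, where 7.64% of all tested genes reached it, and 3 of 32 with limma-voom, where 6.57% did, Gpx1 being the third in both. After adjustment 0 passed with either tool. The median log2 difference, KO over WT, was -0.08 (10 genes above 0 and 22 below), and the median over all tested genes was -0.02 (6413 above and 7624 below). In 2 genes the libraries of the groups did not overlap, Keap1 (all KO below all WT) and Gclc (all KO above all WT), where such separation was seen for 11.1% of all tested genes. The edgeR count and the count without overlap were near or below their background shares, and the DESeq2 and limma-voom counts were slightly above theirs.

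A missed threshold does not show that levels were alike, and the intervals say how large a difference these libraries leave room for. In 25 of the 32 genes the 95% interval of the log2 difference lay within -1 and 1, that is, within a 2-fold difference either way. It reached past that in Gsr, Gclm, Gpx1, Slc7a11, Prdx1, Gsta4 and Sod3. The log2 difference was under 0.2 in size in 22 genes. The value nearest to 0 was that of Gpx4, the peroxidase that reduces lipid peroxides in membranes, with a log2 difference of -0.0063 and an interval from -0.35 to 0.33.

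**Figure D1:**
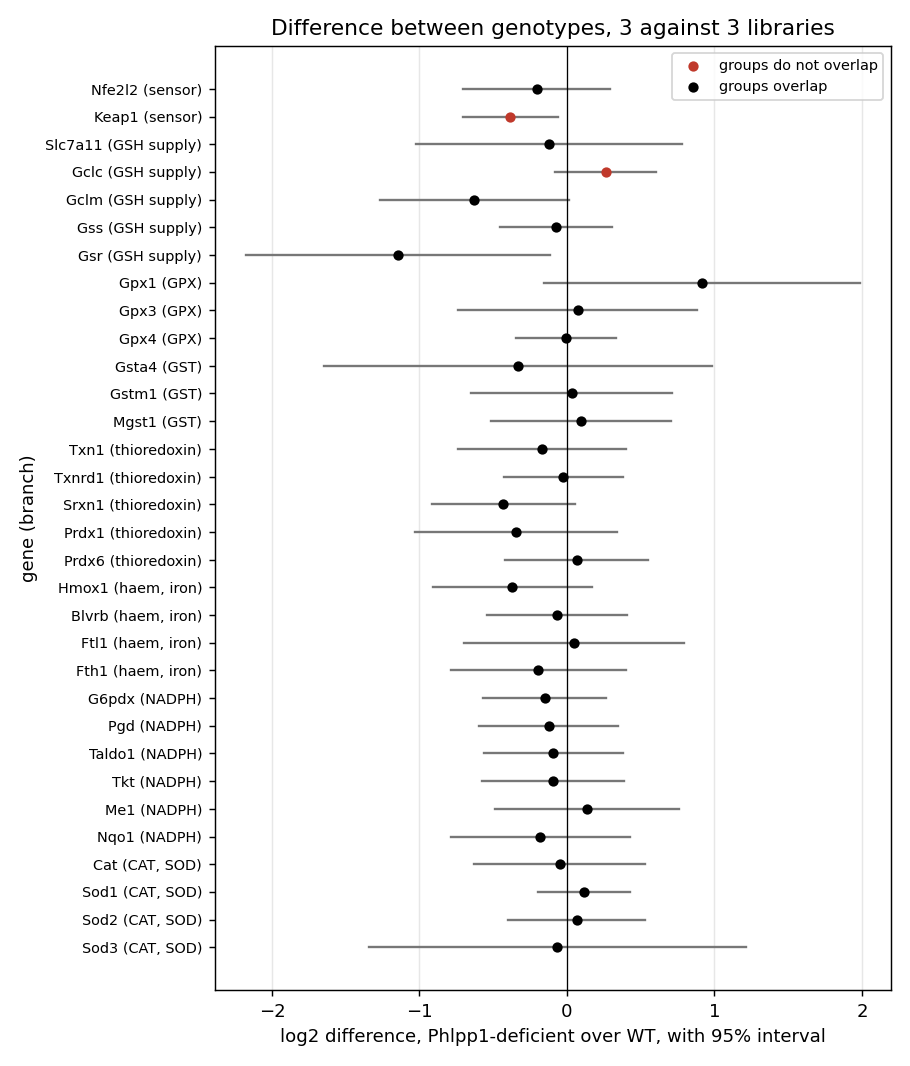
Log2 difference between Phlpp1-deficient and WT libraries for each of the 32 genes (x axis, Phlpp1-deficient over WT), with lines for the 95% interval from the edgeR fit and the branch of each gene in brackets. Of the 32 intervals, 25 lie within -1 and 1, and red points mark Keap1 and Gclc, whose groups do not overlap.

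The programme spanned a wide range of levels. Scaled to gene length and library total (FPKM, as deposited by the authors), the ferritin heavy chain Fth1 averaged 6909 FPKM over the 6 libraries and ranked second of all 34745 genes, and the light chain Ftl1 averaged 1470 FPKM and ranked 18th. Next came Txn1, thioredoxin itself, at 205 FPKM, then Taldo1, Sod1, Hmox1, Prdx1 and Gpx1, each between 106 and 146 FPKM. Nfe2l2 averaged 75.5 FPKM and its inhibitor Keap1 7.92 FPKM. At the low end were Nqo1 at 2.20, Gss at 1.67, Me1 at 1.08 and Sod3 at 0.221 FPKM. Nqo1, the quinone reductase often used to read out NRF2 activity in other tissues, thus ranked 29th of the 32 in FPKM, and Hmox1, another common readout, ranked 6th. The order between genes rests on the fixed length given to each gene, and these lengths were not compared with transcripts. Without a length the order differs for some genes. Gss averaged 13.1 CPM in KO and 13.8 CPM in WT, above Gsta4 at 7.13 and 8.95 CPM, but ranked 30th in FPKM against 24th for Gsta4.

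**Figure D2:**
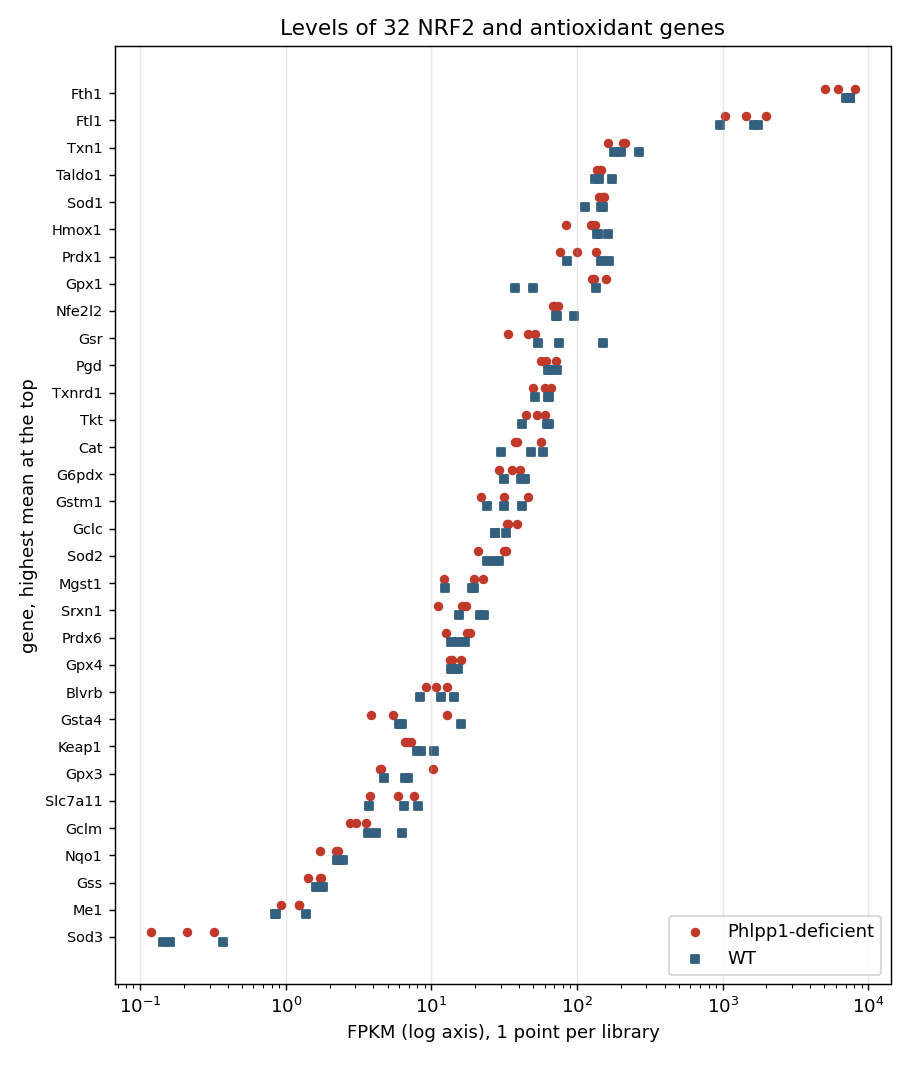
Level of each gene in each library in FPKM (log axis), genes ordered by their mean over 6 libraries, with Phlpp1-deficient libraries as circles above WT libraries as squares. Means over the 6 libraries run from 0.221 FPKM for Sod3 to 6909 FPKM for Fth1, and the points of both genotypes mix in most genes.

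Of the sensor pair, Keap1 separated the genotypes by library and Nfe2l2 did not. Coordinates are those of GENCODE M21 (GRCm38). Nfe2l2 (ENSMUSG00000015839, chromosome 2, 75675513 to 75704641, minus strand) had 261, 301 and 269 CPM in KO libraries 1, 2 and 3 and 272, 411 and 276 CPM in WT libraries 1, 2 and 3. The groups overlapped, and WT library 2 alone stood above the rest. Its log2 difference was -0.21 (SE 0.21), and it turned to 0.034 without WT library 2. Keap1 (ENSMUSG00000003308, chromosome 9, 21229730 to 21239361, minus strand) had 50.2, 55.6 and 55.8 CPM in KO and 63.4, 68.0 and 79.7 CPM in WT. Every KO library lay below every WT library, and the spread within KO was small. Keap1 averaged 53.9 ± 3.16 CPM in KO and 70.4 ± 8.41 CPM in WT (SD, n = 3 each), a log2 difference of -0.39 (SE 0.14, interval -0.71 to -0.06, edgeR adjusted p = 0.59). The difference was -0.25 without WT library 3. A gene on the opposite strand, Gm16754, overlaps exons of Keap1, and without a stated strand setting, reads of the pair cannot be told apart. The same holds for Gss, Ftl1, G6pdx and Me1, each of which shares exon bases with a gene on the opposite strand.

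Glutathione synthesis begins with cystine import by xCT, the product of Slc7a11, and continues with glutamate-cysteine ligase, whose catalytic subunit is Gclc and whose modifier subunit is Gclm. The 2 ligase subunits had log2 differences of opposite sign, neither past the threshold. Gclc (ENSMUSG00000032350, chromosome 9, 77754535 to 77794485, plus strand) had 112, 137 and 111 CPM in KO and 107, 101 and 92.5 CPM in WT. All 3 KO libraries lay above all 3 WT libraries, by a narrow margin. Its means were 120 ± 14.5 CPM in KO and 100.2 ± 7.16 CPM in WT (SD, n = 3 each). For Gclc the log2 difference came to 0.26 (SE 0.14, interval -0.08 to 0.60, edgeR adjusted p = 0.85). Gclm (ENSMUSG00000028124, chromosome 3, 122245557 to 122270732, plus strand) had 22.4, 30.5 and 24.7 CPM in KO and 33.1, 57.1 and 29.8 CPM in WT. KO library 2 lay just above WT library 3, and WT library 2 was far above the others. The log2 difference of Gclm was -0.63 (SE 0.27, interval -1.27 to 0.01, edgeR adjusted p = 0.73), and it was -0.27 without WT library 2. Annotated genes overlap exons of Gclm on both strands.

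Slc7a11 varied by library in both genotypes, with 90.4, 123 and 58.3 CPM in KO and 55.7, 139.7 and 99.7 CPM in WT. The low libraries were KO library 3 and WT library 1, which were also the lowest of their genotypes in summed neutrophil markers, and the high ones were KO library 2 and WT library 2, the highest in those markers; the part of other cells in this was not tested. Its log2 difference was -0.12 (SE 0.38), and -0.33 with the mean of the neutrophil markers as a covariate (edgeR adjusted p = 0.45). Gss, glutathione synthetase, which adds glycine in the last step, lay between 11.2 and 14.3 CPM in KO and between 13.1 and 14.3 CPM in WT. Its log2 difference was -0.08 (SE 0.16).

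Gsr, glutathione reductase, which regenerates reduced glutathione with NADPH, had the largest difference in size among the 32. Gsr (ENSMUSG00000031584, chromosome 8, 33652523 to 33698163, plus strand) had 96.6, 159 and 135 CPM in KO and 153, 492 and 220 CPM in WT. WT library 2 held more than 2-fold the level of any other library, and KO library 2 lay just above WT library 1. The means were 130.3 ± 31.7 CPM in KO and 288 ± 179 CPM in WT (SD, n = 3 each). The log2 difference came to -1.15 (SE 0.44, interval -2.18 to -0.11, edgeR adjusted p = 0.64). WT library 2 carried much of this value: without it the log2 difference was -0.51 (edgeR adjusted p = 0.63). That library also had the highest summed neutrophil (26365 CPM) and erythroid markers (8401 CPM) of the 6. With the mean of the neutrophil markers added as a covariate the difference was -1.16 (edgeR adjusted p = 0.27) and, with that of the erythroid markers, -1.08 (edgeR adjusted p = 0.40).

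**Figure D3:**
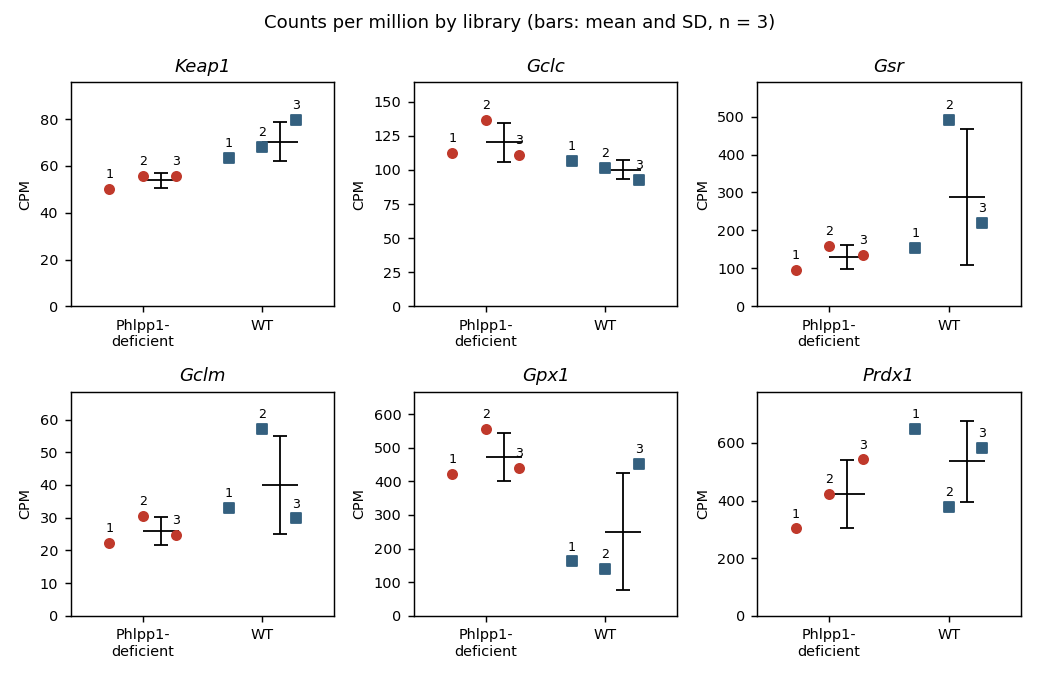
CPM of 6 genes in each library, numbered 1 to 3 by replicate, Phlpp1-deficient libraries (circles) left of WT libraries (squares), with bars for the mean and SD. Keap1 and Gclc separate the genotypes by library, WT library 2 stands alone in Gsr and Gclm, and WT libraries 1 and 2 stand below all others in Gpx1.

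Among the glutathione peroxidases, which use glutathione to reduce hydrogen peroxide and lipid peroxides, Gpx1 varied most across the libraries. Gpx1, the main cytosolic form (ENSMUSG00000063856, chromosome 9, 108338903 to 108340343, plus strand), had 422, 556 and 441 CPM in KO and 162, 139 and 452 CPM in WT. The 3 KO libraries and WT library 3 lay together, and WT libraries 1 and 2 were far below them. The means were 473 ± 72.1 CPM in KO and 251 ± 174 CPM in WT (SD, n = 3 each). The log2 difference came to 0.92 (SE 0.45, interval -0.15 to 1.98, edgeR adjusted p = 0.81). WT library 3 moved this value most: without it the log2 difference was 1.68 (edgeR adjusted p = 0.30), and it was 0.64 without WT library 2. The ratio of WT library 3 to the mean of WT libraries 1 and 2 was 3.00 for Gpx1, a ratio reached by 0.207% of all tested genes. This split of the WT libraries was taken from the Gpx1 values themselves, so that share does not measure how unusual Gpx1 is. Among the 22 other tested genes within 250 kb of Gpx1, a window chosen after the Gpx1 values were seen, this ratio lay between 0.223 and 1.69, and 0 had groups that did not overlap. The adjacent gene Rhoa, for example, had 634, 759 and 667 CPM in KO and 627, 762 and 673 CPM in WT. No transcript elsewhere in M21 matched Gpx1 at 95% identity over 150 bases, and no exon of another annotated gene overlapped it.

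Gpx3, a secreted peroxidase, had 10.2, 11.0 and 24.1 CPM in KO and 14.9, 12.2 and 16.0 CPM in WT, so KO library 3 stood above the other 5. Its log2 difference was 0.07 (SE 0.34) and -0.42 without KO library 3. Gpx4 lay between 36.9 and 46.1 CPM in KO and between 37.3 and 43.5 CPM in WT, one of the steadiest levels among the 32. Of the transferases, which attach glutathione to reactive compounds, Gsta4, known for clearing the lipid aldehyde 4-hydroxynonenal, was the least even. It had 5.09, 12.7 and 3.61 CPM in KO and 14.7, 6.52 and 5.64 CPM in WT, one high library in each genotype. Its log2 difference of -0.33 (SE 0.56) turned to 0.23 without WT library 1. Gstm1 lay between 61.5 and 130.3 CPM in KO and between 75.6 and 115 CPM in WT, and the membrane-bound Mgst1 between 57.3 and 108 CPM in KO and between 65.7 and 91.2 CPM in WT. The groups overlapped widely in both, with log2 differences of 0.03 (SE 0.29) for Gstm1 and 0.09 (SE 0.26) for Mgst1. The pseudogene Gstm2-ps1, which matches Gstm1 over 657 bases, held 7.10% of the counts of that pair.

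In the thioredoxin branch, where thioredoxin reductase (Txnrd1) recharges thioredoxin (Txn1) and peroxiredoxins spend it to remove peroxides, 4 of 5 genes had log2 differences below 0 and none passed. Srxn1, sulfiredoxin, which revives over-oxidised peroxiredoxins (chromosome 2, 152105516 to 152111376), had 39.5, 60.5 and 61.5 CPM in KO and 79.3, 61.5 and 77.2 CPM in WT. Only KO library 3 and WT library 2 met, at nearly the same value. The log2 difference of Srxn1 was -0.43 (SE 0.21, interval -0.92 to 0.05, edgeR adjusted p = 0.79), or -0.25 without KO library 1. Prdx1, a cytosolic peroxiredoxin (chromosome 4, 116685544 to 116700822), had 303, 422 and 543 CPM in KO and 648, 379 and 584 CPM in WT. The low libraries were KO library 1 and WT library 2, and KO differed from WT by -0.35 on the log2 scale (SE 0.29, edgeR adjusted p = 0.98), or by -0.20 with the neutrophil covariate. It was -0.15 without KO library 1 and -0.55 without KO library 3. Txnrd1 lay between 165 and 233 CPM in KO and between 191 and 212 CPM in WT, a log2 difference of -0.02 (SE 0.17). Txn1 had 166, 233 and 215 CPM in KO and 201, 305 and 185 CPM in WT, with WT library 2 again the highest, and its difference of -0.17 (SE 0.24) turned to 0.10 without that library. Prdx6, which also repairs oxidised phospholipids and is the gene of this branch that lay above 0, had a log2 difference of 0.07 (SE 0.21).

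The haem and iron branch held the most abundant members. Hmox1, haem oxygenase 1, which splits haem and frees its iron (chromosome 8, 75093621 to 75100589, plus strand), had 225, 358 and 364 CPM in KO and 360, 422 and 443 CPM in WT. KO library 1 was the lowest, and KO library 3 lay just above WT library 1. Hmox1 averaged 316 ± 78.5 CPM in KO and 409 ± 43.2 CPM in WT (SD, n = 3 each), a log2 difference of -0.37 (SE 0.23, interval -0.91 to 0.17, edgeR adjusted p = 0.91), or -0.18 without KO library 1. Blvrb, a biliverdin and flavin reductase abundant in red cells, had 24.8, 30.6 and 35.0 CPM in KO and 37.9, 25.3 and 31.5 CPM in WT. It did not rank the libraries as the erythroid markers did: WT library 2, the highest in those, was the lowest WT library for Blvrb.

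The 2 ferritin chains, which assemble into the shell that stores iron, ranked the libraries differently. Fth1 (chromosome 19, 9980598 to 9985098) had 5224, 7284 and 4302 CPM in KO and 6184, 6685 and 6362 CPM in WT. The WT libraries lay close together and inside the KO range, and the log2 difference was -0.19 (SE 0.25), with -0.019 without KO library 3 and -0.43 without KO library 2. Ftl1 (chromosome 7, 45457944 to 45459884) had 2866, 4206 and 5540 CPM in KO and 4439, 2941 and 4823 CPM in WT, a log2 difference of 0.05 (SE 0.32). The ratio of Fth1 to Ftl1 in FPKM was 5.95, 5.65 and 2.53 in KO and 4.55, 7.42 and 4.30 in WT. The ratio was lowest in KO library 3 and highest in WT library 2, and the groups overlapped. Its size depends on the fixed lengths behind the FPKM values, so it does not measure an excess of heavy chain RNA. In CPM, which uses no length, Ftl1 lay above Fth1 in KO library 3 and below it in every other library. Ftl1-ps1, a pseudogene by its name but annotated as protein-coding in M21, matches Ftl1 at 99.6% identity over 910 bases. It held 14.1% of the counts of the pair, so the Ftl1 count is uncertain. With the copies of Ftl1 added, its log2 difference was 0.017 (SE 0.31). Near-identical copies of Fth1, Gpx4, Prdx1, Me1 and Sod1 are annotated as well, but they were not among the genes measured and could not be added. Whether their reads were counted in these genes was not tested.

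NADPH for these reductases comes mainly from the pentose phosphate pathway and malic enzyme. Of the 6 genes here, 5 had log2 differences below 0, all small. G6pdx, the first and rate-limiting enzyme of the oxidative arm, had 109.7, 142 and 155 CPM in KO and 162, 133 and 156 CPM in WT (log2 difference -0.15, SE 0.18). KO library 1 and WT library 2 were the low ones, and without KO library 1 the difference was -0.020. Pgd, the next NADPH-producing enzyme, lay between 402 and 542 CPM in KO and between 440 and 586 CPM in WT (log2 difference -0.12, SE 0.20). The enzymes of the non-oxidative arm, Taldo1 and Tkt, had log2 differences of -0.09 (SE 0.20) and -0.10 (SE 0.20), and Taldo1 turned to 0.12 without WT library 2. Me1, cytosolic malic enzyme, was scarce, at 5.02 to 7.12 CPM in KO and 4.72 to 7.34 CPM in WT. Nqo1, which spends NADPH to reduce quinones, had only 36, 50 and 46 counts in KO libraries 1, 2 and 3 and 56, 47 and 57 counts in WT libraries 1, 2 and 3, with a log2 difference of -0.18 (SE 0.26, interval -0.79 to 0.43), or -0.045 without KO library 1.

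Catalase and the superoxide dismutases, which act without glutathione, had the smallest median difference of the branches with 4 or more genes, at 0.0081 on the log2 scale. Cat, the peroxisomal catalase, had 118, 122 and 174 CPM in KO and 175, 103.6 and 149 CPM in WT. Sod1, the cytosolic enzyme, was steady at 90.5 to 103 CPM in KO and 79.8 to 96.2 CPM in WT (log2 difference 0.12, SE 0.13, interval -0.19 to 0.43). Sod2, the mitochondrial enzyme induced by NF-kB, had 117, 128 and 78.8 CPM in KO and 98.7, 101.3 and 109.8 CPM in WT. KO library 3 was its lowest value and the WT libraries lay inside the KO range. Sod3, the extracellular enzyme, had only 6, 11 and 16 counts in KO and 22, 8 and 8 counts in WT, and its interval, -1.34 to 1.21, reaches past a 2-fold difference in both directions.

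Among the KO libraries, the low values of the 32 genes gathered in 1 library. KO library 1 was the lowest of the 3 KO libraries in 25 of the 32 genes, where it was the lowest for 34.8% of all tested genes, and it was the highest in 0 of the 32. KO library 2 was the lowest in 0 of the 32 (28.8% of all tested genes) and the highest in 19 (32.9%). WT library 2 was the lowest WT library in 13 genes (43.2% of all tested genes) and the highest in 11 (37.3%), both near the background. Both KO library 1 and WT library 2 were the lowest of their genotype in 12 of the 32 genes, where this held for 20.1% of all tested genes: Gpx1, Gpx3, Gstm1, Mgst1, Txnrd1, Srxn1, Prdx1, Blvrb, Ftl1, G6pdx, Tkt and Cat. With KO library 1 the lowest in 25 genes, this joint count follows in large part from that one and is not a separate result. The same 2 libraries had the lowest summed alveolar macrophage markers of their genotypes, 14481 CPM in KO library 1 and 16397 CPM in WT library 2, and the part of cell composition in this pattern was not tested. WT library 2 was instead the highest of all 6 for Nfe2l2, Gclm, Gsr, Slc7a11, Txn1, Pgd, Taldo1 and Nqo1. Without KO library 1 the median log2 difference of the 32 genes was 0.012.

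**Figure D4:**
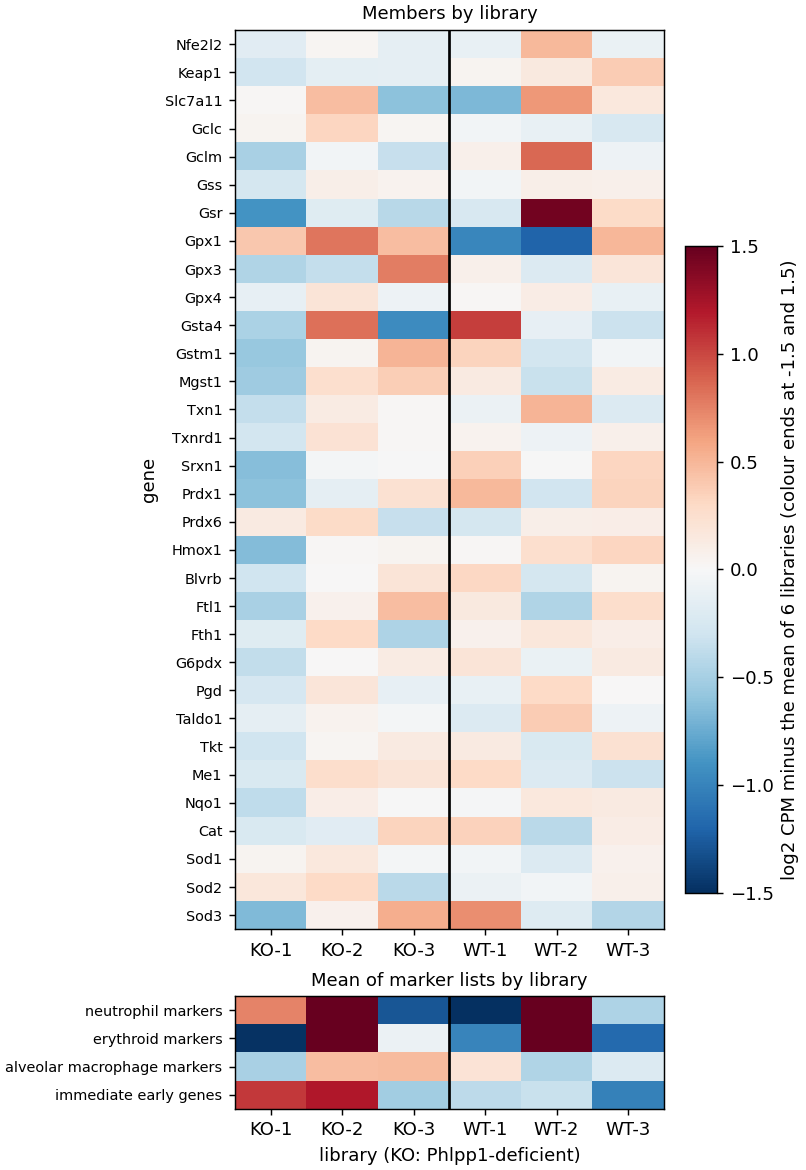
Each gene's log2 CPM in each library minus its mean over the 6 libraries (colour, ending at -1.5 and 1.5), with Phlpp1-deficient libraries left of the line and WT libraries right of it, and below them the mean of 4 marker lists treated the same way. KO library 1 is below the mean in 26 of 32 genes and KO library 2 above it in 25.

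The rest of the pathway was read from 7 lists that share no gene with the 32, of which 0 members passed the test over all genes (edgeR). The NRF2 partners and regulators (14 tested) had a median log2 difference of -0.02, with 7 above 0 and 7 below. Maff, a small MAF partner of NRF2, had 38.3, 51.5 and 19.4 CPM in KO and 24.8, 25.3 and 20.8 CPM in WT. KO libraries 1 and 2 lay above all WT libraries and KO library 3 below them (log2 difference 0.62, SE 0.33, edgeR adjusted p = 0.84).

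Other NRF2 target genes (26 tested) had a median log2 difference of -0.15, with 5 above 0 and 21 below, beside -0.02 over all tested genes. Esd, which hydrolyses S-formylglutathione, and the efflux pump Abcc4 had the smallest p-values, with log2 differences of -0.31 (SE 0.14) and -0.26 (SE 0.13). In both, the KO libraries lay below the WT libraries (edgeR adjusted p = 0.78 and 0.82). They were the only 2 of the 26 without overlap, where such separation was seen for 11.1% of all tested genes. Genes named from these lists had the smallest p-values of their list, which favours such separation. Other glutathione genes (28 of 31 tested) had a median of 0.03. Gsto1, an omega-class glutathione transferase, had 130.1, 214 and 149 CPM in KO and 526, 226 and 278 CPM in WT. Its groups did not overlap (log2 difference -1.06, SE 0.36, edgeR adjusted p = 0.56), as in 3 of the 28 genes of this list. Ggct, which breaks down gamma-glutamyl peptides, had a log2 difference of -0.44 (SE 0.22). Other thioredoxin genes (17 tested) had a median of -0.05, with Msrb2, a mitochondrial methionine sulfoxide reductase, at -0.63 (SE 0.26) and the sestrin Sesn1 at 0.30 (SE 0.19).

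Other iron and haem genes (20 of 21 tested) had a median log2 difference of -0.07. Tfrc, the transferrin receptor that imports iron, had 42.3, 41.1 and 65.0 CPM in KO and 34.7, 39.5 and 37.9 CPM in WT, with all KO above all WT (log2 difference 0.40, SE 0.20, edgeR adjusted p = 0.82). The iron chaperone Pcbp1 had -0.27 (SE 0.15). Of the 20 genes, 1 had all KO above all WT and 1 had all KO below all WT, where 11.1% of all tested genes separated either way. Other pentose phosphate and NADPH genes (14 of 17 tested) had a median of -0.06, with Nnt, the mitochondrial transhydrogenase, at 0.30 (SE 0.15) and H6pd, the enzyme of the endoplasmic reticulum, at -0.29 (SE 0.15). The enzymes that make oxidants (10 of 16 tested) had a median of -0.11. Xdh, xanthine dehydrogenase, had 138, 170 and 134 CPM in KO and 138, 323 and 228 CPM in WT, with WT library 2 the highest as in Gsr (log2 difference -0.64, SE 0.30, edgeR adjusted p = 0.79). Cybc1, a chaperone of the phagocyte NADPH oxidase, had -0.14 (SE 0.14).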

How the data were processed

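The authors deposited whole-number read counts and FPKM values per gene, per the file headers, for 34745 genes in 6 libraries. Per the submitters' processing notes, the tools included StringTie 1.3.0, HISAT2 and edgeR and the build was mm10, with no roles. Annotation and strand setting were not given in the sources used here. In 9265 genes checked, the deposited FPKM values equal counts divided by library total and a fixed length per gene (largest relative spread 8.76e-06). Gene IDs were matched to GENCODE M21 (GRCm38, the assembly of mm10; 34344 named, 401 unnamed), whose 1-based coordinates are given. Members and lists were chosen with earlier results of these data known.

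Counts were tested with edgeR 4.0.16 in R 4.3.3 (filterByExpr, TMM, estimateDisp, glmQLFit with robust=TRUE, glmQLFTest), with Benjamini-Hochberg adjustment over 14037 genes and a threshold of 0.05. Standard errors (SE) were taken as log2 difference over root F. Intervals are 95%. CPM uses TMM-scaled totals. Alternatives were DESeq2 1.42.0, limma-voom and limma 3.58.1 on log2(FPKM + 1), other scalings and filters, a replicate block, covariates, summed copies and leaving out each library. Copies were transcripts matching at 95% identity or more across 150 bases or more (blastn 2.17.0). All 32 members were named, and from each of 7 pathway lists up to 4 called genes or the 2 with the smallest p, of which 1 gene is not reported here. Rhoa and Ccdc71 were added after their values were seen. The fits were tested on simulated data, where most 2-fold changes were missed and most 4-fold changes were called. The simulated spread followed the trend over all genes, not each gene's own, and held no differences in cell content. It thus does not give the recovery for single members. Counts of any 2 libraries of a genotype differed beyond sampling noise (chi-square per gene 34.4 or more).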

Additional observations from a re-analysis of the deposited data

How the results depend on the processing

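No member was called in any of the 18 alternatives, where the lowest adjusted p was 0.27 (Gsr with the neutrophil covariate), and the median log2 difference of the 32 genes stayed between -0.17 and 0.012. The number of genes called among all tested was 14, against 199 with DESeq2, 23 with limma-voom, 36 without a filter on low counts, 22 with limma on log2(FPKM + 1), 53 with the neutrophil covariate, 9 with the erythroid covariate and 1 with the replicate number as a block, and from 1 (without WT library 3) to 32 (without KO library 3) when a library was left out. The cause was not tested. At an unadjusted p under 0.05 the most members, 4 of 32, were reached with the neutrophil covariate (10.6% of all tested genes) and with the replicate block (8.01%). Same-numbered libraries correlated in their deviations at -0.12, 0.33 and 0.29, and not every library correlated best with its own number. The labels do not state whether the numbers pair the libraries. These correlations cannot decide it, because the deviations are from means of only 3 libraries that also differed in cell content.

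Of the 32 genes, 13 kept their direction in every alternative, and with a library left out their log2 differences ran from -0.46 to -0.25 for Keap1, 0.16 to 0.33 for Gclc, -0.77 to -0.27 for Gclm, -1.45 to -0.51 for Gsr, 0.64 to 1.68 for Gpx1, -0.53 to -0.25 for Srxn1, -0.55 to -0.15 for Prdx1, -0.47 to -0.18 for Hmox1, -0.43 to -0.019 for Fth1, -0.24 to -0.020 for G6pdx, 0.038 to 0.35 for Me1, -0.29 to -0.045 for Nqo1 and 0.063 to 0.21 for Sod1. The other 19 changed sign at least once, none past the threshold, and their log2 differences with a library left out ran from -0.19 to 0.083 for Blvrb, -0.23 to 0.12 for Cat, -0.19 to 0.26 for Ftl1, -0.42 to 0.29 for Gpx3, -0.11 to 0.061 for Gpx4, -0.14 to 0.029 for Gss, -1.04 to 0.23 for Gsta4, -0.25 to 0.27 for Gstm1, -0.067 to 0.33 for Mgst1, -0.31 to 0.034 for Nfe2l2, -0.26 to 0.018 for Pgd, -0.071 to 0.25 for Prdx6, -0.41 to 0.23 for Slc7a11, -0.075 to 0.27 for Sod2, -0.43 to 0.45 for Sod3, -0.21 to 0.12 for Taldo1, -0.21 to 0.027 for Tkt, -0.27 to 0.10 for Txn1 and -0.15 to 0.098 for Txnrd1. Other reversals were Gpx3 at -0.025 and Gstm1 at -0.0042 with the replicate block, Gpx3 at -0.045 and Gstm1 at -0.0059 with limma-voom, and Gpx3 at -0.0043 with log2(FPKM + 1). Gpx4 reversed to 0.011 with DESeq2, 0.010 with RLE factors, 0.0061 with library totals, 0.017 without a filter and 0.0039 with log2(FPKM + 1). With the neutrophil covariate Blvrb was 0.035, Cat 0.097, Prdx6 -0.045, Sod2 -0.024 and Sod3 0.17, and with the erythroid covariate Cat was 8.6e-05. Summing copies, whole or, chosen after seeing the data, only where at least 50% of the transcript matched, changed no direction, although the tubulin matches of Slc7a11 and the short matches of Sod2 cover only 4.0% and 2.7% to 3.3% of their transcripts. Counts of at least 10 in every library left out Sod3.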
